A study of Mus musculus with 8 samples.

Results

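The 6 genes described here encode chemoattractants and growth factors for other leukocytes that mouse eosinophils transcribe to very different extents. They are Ccl6, Ccl9, Ccl2, Cxcl2, Cxcl16 and Csf1. They were chosen by name, with earlier results of these data known. The gene lists used below were chosen with the same knowledge. The shares over all tested genes given beside members and lists are therefore a scale and not a test. Each symbol was matched to 1 Ensembl gene of the deposited count table, and all 6 matched, out of 15917 genes. All 6 also passed the filter on low counts, which left 15913 genes to test. Eosinophils are granule-bearing leukocytes, and here they came from the blood of C57BL/6 mice. The culture protocol names the IL-5 transgenic line NJ.1638 as the donor in every group, whereas the genotype label reads WT for all samples. The cells had been enriched by magnetic depletion with CD90 and B220 beads to a purity above 97% by stain, and were kept at 4 to 5 × 1e6 per mL in RPMI-1640 with 10% FBS for 18 h. In one experiment the cells received IFN-γ and TNF-α at 15 ng/mL (E1) or no cytokine (CN). In a second experiment they received IL-5, GM-CSF and IL-4 at 10 ng/mL with IL-33 at 30 ng/mL (E2), or IL-5 alone at 10 ng/mL (E0). Each group had 2 libraries, 8 in all. Which animals or cultures gave the replicates is not in the labels, so the p-values measure only the spread between these libraries.

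Chemokines are small secreted proteins that bind receptors coupled to G proteins on leukocytes and steer their migration. Ccl6 and Ccl9 are mouse CC chemokines that bind Ccr1, Ccl2 draws monocytes through Ccr2, and Cxcl2 draws neutrophils through Cxcr2. Cxcl16 is made as a transmembrane chemokine for Cxcr6 and is released by metalloproteases. Csf1 (M-CSF) is the growth and survival factor of monocytes and macrophages and acts through Csf1r. Several genes of these families are known targets of NF-κB, and some also respond to STAT factors and AP-1 downstream of the cytokines used here.

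The promoters are shown because the members differed in which cytokine mixture raised them, and because binding motifs of those factors could be looked up in them. The RefSeq promoter table on GRCm38.p6 matched 4 of the 6 members, all except Ccl2 and Cxcl16. Each sequence is the 250 bases before the RefSeq start site, written 5′ to 3′ on the strand of the gene. For Cxcl2 the window runs past 90903871, where the gene begins in GENCODE M21, so its last bases lie inside that gene body. The regions are chr11:83593088-83593337 (minus strand) for Ccl6, chr11:83578637-83578886 (minus strand) for Ccl9, chr5:90903649-90903898 (plus strand) for Cxcl2 and chr3:107760470-107760719 (minus strand) for Csf1. Capitals mark matches to the κB consensus and to the AP-1 motif.
Ccl6: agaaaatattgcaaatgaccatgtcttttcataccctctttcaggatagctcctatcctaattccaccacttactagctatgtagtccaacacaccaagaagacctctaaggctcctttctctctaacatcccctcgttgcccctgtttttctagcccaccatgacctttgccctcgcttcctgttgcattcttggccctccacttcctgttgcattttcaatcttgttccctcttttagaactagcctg
Ccl9: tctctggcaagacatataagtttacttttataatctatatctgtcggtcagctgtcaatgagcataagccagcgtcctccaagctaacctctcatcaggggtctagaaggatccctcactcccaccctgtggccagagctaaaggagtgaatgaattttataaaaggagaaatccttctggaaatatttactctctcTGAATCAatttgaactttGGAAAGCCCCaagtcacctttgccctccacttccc
Cxcl2: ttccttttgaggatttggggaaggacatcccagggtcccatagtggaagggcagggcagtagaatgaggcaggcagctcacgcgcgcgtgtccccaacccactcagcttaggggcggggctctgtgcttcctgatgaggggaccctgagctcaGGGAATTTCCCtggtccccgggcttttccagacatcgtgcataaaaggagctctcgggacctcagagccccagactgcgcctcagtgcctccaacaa
Csf1: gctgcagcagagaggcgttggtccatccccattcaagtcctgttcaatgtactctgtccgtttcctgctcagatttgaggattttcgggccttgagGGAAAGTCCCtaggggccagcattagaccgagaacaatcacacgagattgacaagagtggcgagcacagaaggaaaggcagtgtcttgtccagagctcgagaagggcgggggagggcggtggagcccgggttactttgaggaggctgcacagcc
Both strands were searched for the κB consensus, for the GAS motif TTCNNNGAA, for the STAT6 spacing, which has the same ends with 1 more base between them, and for the AP-1 motif TGANTCA. The Ccl9 promoter held a κB match 35 to 26 bases before the start site and an AP-1 match 53 to 47 bases before it. The Cxcl2 promoter held 1 κB match on each strand, 97 to 88 and 96 to 87 bases before the start site, which overlap. The Csf1 promoter held a κB match 154 to 145 bases before the start site. The Ccl6 window held none of the 4 motifs, and no GAS or STAT6 match stood in any of the 4 windows. Among 13081 promoter windows of the same length from 10333 genes, 4.53% held a κB match, 6.12% a GAS match, 4.85% a STAT6 match and 4.68% an AP-1 match. These matches describe letters only and say nothing of binding.

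Library totals ran from 60809057 to 95065752 counts. A level of 3 counts in a library, taken as its floor, corresponded to 0.0316 to 0.0483 CPM (read counts relative to library size, here with TMM scaling). Floors and intervals on counts cover counting error only, because PCR reads without molecular identifiers are not independent molecules. Spearman correlations across genes between replicates were 0.992 to 0.9946. In every group Ddx3y, a Y-linked gene, was at 62.5 to 95.6 CPM in replicate 1 and at 0 in replicate 2. Xist was at 0.0527 to 0.193 CPM in replicate 1 and at 796 to 1142 CPM in replicate 2. The replicates of a group thus did not come from 1 pool of cells, and the spread between them includes a difference of sex. The 11 eosinophil markers were all present and summed to 6028 to 6892 CPM in E1 and 7824 to 8086 CPM in CN, and to 4990 to 5047 CPM in E2 and 7160 to 7245 CPM in E0. Transcripts known from other leukocytes were present too. The 15 monocyte and macrophage markers analysed summed to 6933 to 7445 CPM in E1 and 3135 to 3465 CPM in CN, and to 4043 to 4187 CPM in E2 and 3037 to 3125 CPM in E0. In E1, Ly6c2 alone gave 4214 and 3784 CPM, against 92.8 and 105 CPM in CN. Adgre1 was among the 2 most abundant markers of that list, and Mrc1 was at 0 in at least 1 library. The 15 neutrophil markers summed to 1736 to 2276 CPM in E1 and 3204 to 3670 CPM in CN, and to 1158 to 1603 CPM in E2 and 3193 to 3994 CPM in E0. The part of any such cells in the results below was not tested, and in bulk RNA fewer cells of a type and less RNA per cell cannot be told apart.

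The 2 Ccr1 ligands were the most abundant members. Ccl9 rose with both cytokine mixtures, while Ccl6 lay between 6225 and 8688 CPM in all 8 libraries, near the top of the transcriptome. Ccl6 (ENSMUSG00000018927, mm10 chr11:83587882-83593087, minus strand) is a chemokine known in mice for macrophage-rich and allergic inflammation. It had 6905 and 6225 CPM in E1, and 7729 and 7856 CPM in CN. In the second experiment it had 8036 and 8688 CPM in E2, and 7559 and 7511 CPM in E0. Both E1 libraries lay below both CN libraries and both E2 libraries lay above both E0 libraries, and no 2 groups overlapped. The log2 fold change was -0.25 ± 0.10 (SE) for E1 versus CN, with an edgeR adjusted p of 0.146, and 0.15 ± 0.10 for E2 versus E0, with an edgeR adjusted p of 0.283. Neither was called at the threshold of 0.05. The E1 value passed that threshold with DESeq2 (adjusted p = 0.0337), with limma-voom (adjusted p = 0.0496) and with scaling by library totals alone (edgeR adjusted p = 0.0418). By TPM (counts scaled to exon length and library), Ccl6 ranked 8 and 9 among all genes in E1, 4 and 5 in CN, 4 and 6 in E2, and 5 in both E0 libraries. It took 0.588% to 0.897% of all counts of a library.

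Ccl9 (ENSMUSG00000019122, mm10 chr11:83572919-83578636, minus strand), known from mouse macrophages and osteoclasts, lies 9.25 kb from Ccl6. It had 1169 and 1122 CPM in E1, and 633 and 499 CPM in CN. In the second experiment it had 1833 and 1987 CPM in E2, and 613 and 636 CPM in E0. The treated libraries lay above their controls in both experiments, E2 lay above E1, and only E0 and CN overlapped. Ccl9 was 2.02-fold higher in E1 than in CN (log2 fold change 1.02 ± 0.12, edgeR adjusted p = 0.000557) and 3.06-fold higher in E2 than in E0 (log2 fold change 1.61 ± 0.12, edgeR adjusted p = 4.54e-05). Its rank by TPM was 119 and 111 in E1, 220 and 271 in CN, 49 and 46 in E2, and 184 and 180 in E0.

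Ccl2 (ENSMUSG00000035385, mm10 chr11:82035571-82037453, plus strand), the monocyte attractant MCP-1, was barely transcribed. It had 2 and 3 counts in the E1 libraries, and 0 and 2 counts in the CN libraries. With the other mixture it had 85 and 52 counts in the E2 libraries, and 22 and 50 counts in the E0 libraries. These counts were 0.0239 and 0.0409 CPM in E1, 0 and 0.0240 CPM in CN, 0.997 and 0.669 CPM in E2, and 0.354 and 0.597 CPM in E0. Every library of the first experiment was at or under its floor, so a fall with IFN-γ and TNF-α was not detectable at this depth. A rise above the floor was not seen in E1, and a smaller one could not be told from no change. The ratio of summed counts of E1 to CN, scaled to library size, was 2.83, with an exact 95% counting interval of 0.464 to 29.8. E2 lay above E0 without overlap, with a ratio of 1.70 (exact 95% counting interval 1.27 to 2.30). The replicated test did not call that difference (log2 fold change 0.79 ± 0.46, edgeR adjusted p = 0.220).

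Cxcl2 (ENSMUSG00000058427, mm10 chr5:90903871-90905938, plus strand), the neutrophil attractant MIP-2, was a low transcript in every group. It had 2.74 and 1.64 CPM in E1, and 1.30 and 1.51 CPM in CN. In the second experiment it had 7.05 and 12.4 CPM in E2, and 3.19 and 5.51 CPM in E0. No 2 groups overlapped, and the replicates of E2 and of E0 lay further apart, relative to their mean, than those of CN. The higher level in E1 than in CN was not called (log2 fold change 0.64 ± 0.38, edgeR adjusted p = 0.313). Cxcl2 was 2.23-fold higher in E2 than in E0 (log2 fold change 1.15 ± 0.36, edgeR adjusted p = 0.0383). That call was lost without E0 replicate 1 (log2 fold change 0.82, edgeR adjusted p = 0.192) and without E2 replicate 2 (log2 fold change 0.69, edgeR adjusted p = 0.266). The related Cxcl3, which shares the receptor, had 1.57 and 0.681 TPM in E1, 0.922 and 0.347 TPM in CN, 3.11 and 6.04 TPM in E2, and 1.43 and 2.80 TPM in E0. How reads that fit several genes were counted is not given in the sources used here.

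Cxcl16 (ENSMUSG00000018920, mm10 chr11:70453983-70459984, minus strand) rose with IFN-γ and TNF-α. It had 18.0 and 14.6 CPM in E1, and 2.70 and 1.66 CPM in CN. With the other mixture it had 5.63 and 7.12 CPM in E2, and 4.54 and 6.28 CPM in E0. E1 stood above all other libraries, CN below all others, and E2 and E0 overlapped. The gene was 7.45-fold higher in E1 than in CN (log2 fold change 2.90 ± 0.27, edgeR adjusted p = 0.000166), while E2 versus E0 was not called (log2 fold change 0.23 ± 0.26, edgeR adjusted p = 0.514). It overlaps Zmynd15, a gene on the opposite strand. The 2 genes share 552 exon bases, 18.3% of those of Cxcl16 and 12.5% of those of Zmynd15. Zmynd15 had 11.3 and 8.997 CPM in E1, and 1.59 and 1.08 CPM in CN, with a log2 fold change of 2.92 ± 0.25 (edgeR adjusted p = 0.000106). The kit keeps strand but the strand setting of the counting is not given in the sources used here, so reads of the 2 genes in the shared bases cannot be told apart.

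Csf1 (ENSMUSG00000014599, mm10 chr3:107741048-107760469, minus strand) moved in opposite directions in the 2 experiments. It had 468 and 430 CPM in E1, and 296 and 286 CPM in CN. In the second experiment it had 137 and 145 CPM in E2, and 461 and 413 CPM in E0. E2 was the lowest group, CN the next, and E1 and E0 overlapped at the top. Csf1 was 1.54-fold higher in E1 than in CN (log2 fold change 0.62 ± 0.08, edgeR adjusted p = 0.00126) and 3.10-fold lower in E2 than in E0 (log2 fold change -1.63 ± 0.09, edgeR adjusted p = 9.03e-06). By TPM its rank was 648 and 661 in E1, 898 and 922 in CN, 1965 and 1921 in E2, and 465 and 543 in E0.

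**Figure D1:**
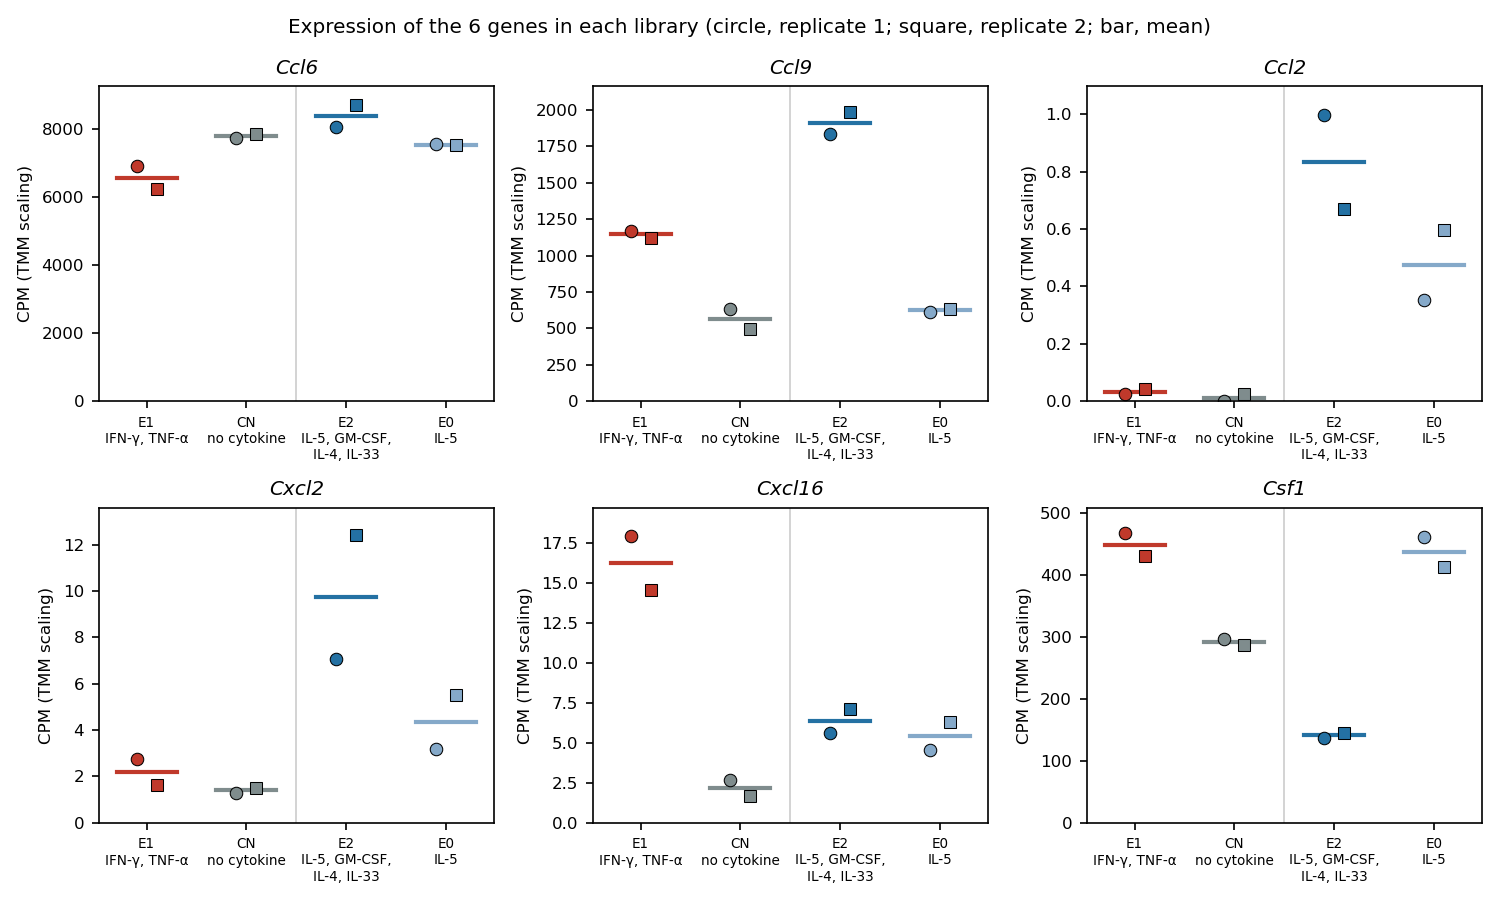
CPM with TMM scaling (y axis, linear from 0) of each of the 6 genes in the E1, CN, E2 and E0 libraries (x axis); circles are replicate 1, squares replicate 2 and bars the mean of 2 libraries. Ccl6 stays between 6225 and 8688 CPM, Ccl9 is highest in E2, Cxcl16 highest in E1, and Csf1 is lowest in E2 at 137 and 145 CPM.

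Of the 6 members, Ccl9, Cxcl16 and Csf1 were called higher in E1 than in CN and 0 lower, where 17.3% of all tested genes were called, 9.19% higher and 8.08% lower. At an unadjusted p below 0.05, edgeR put 1 member lower, Ccl6, which DESeq2 and limma-voom also called. A fall of Ccl2 in E1 was not detectable, because its CN libraries were at or under the floor. In E2 versus E0, Ccl9 and Cxcl2 were called higher and Csf1 lower, where 35.5% of all tested genes were called, 17.0% higher and 18.5% lower. The members' median log2 fold change was 0.83 for E1 versus CN, or 0.78 with Ccl2 set at the bound that 3 counts over CN allow, and 0.51 for E2 versus E0, against -0.01 and -0.02 over all tested genes. The 2 responses share no library. Their difference, (E2 minus E0) minus (E1 minus CN), was tested as an interaction term in the same fit, and 25.2% of all tested genes were called. Of the tested genes, 11.3% were called with a positive and 14.0% with a negative difference. It was 0.60 ± 0.17 on the log2 scale for Ccl9 (edgeR adjusted p = 0.0321), with the larger response in the second experiment. Leaving out any single library except CN replicate 2 ended that call, with adjusted p-values of 0.0573 to 0.104. The difference was -2.66 ± 0.37 for Cxcl16 (edgeR adjusted p = 0.00137) and -2.25 ± 0.12 for Csf1 (edgeR adjusted p = 8.71e-06), and both calls were kept in all 16 alternatives run. It was not called for Ccl6 (0.40 ± 0.14, edgeR adjusted p = 0.0785), which 5 alternatives called, nor for Cxcl2 (0.51 ± 0.52, edgeR adjusted p = 0.531). The experiments differ in their control as well as in the cytokines added, so the difference is one between whole experiments.

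**Figure D2:**
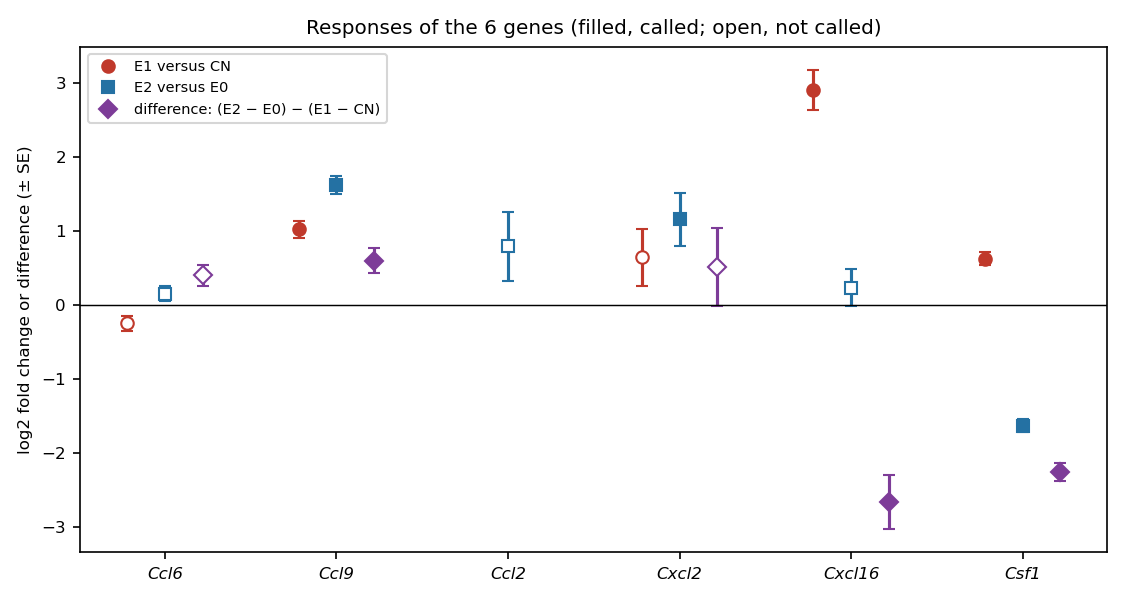
Log2 fold change ± SE (y axis) of the 6 genes (x axis) in E1 versus CN (circles), E2 versus E0 (squares) and the difference of the 2 responses (diamonds); filled symbols were called at an adjusted p below 0.05, and Ccl2 is drawn only for E2 versus E0. Cxcl16 is at 2.90 in the first experiment and 0.23 in the second, and Csf1 at 0.62 and -1.63.

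E0 and CN came from different experiments, so IL-5 and experiment cannot be told apart. Ccl2, Cxcl2, Cxcl16 and Csf1 were called higher in E0 than in CN and 0 members lower, where 25.4% of all tested genes were called, 13.5% higher and 11.9% lower. The count lower was also 0 at an unadjusted p below 0.05, by DESeq2 and by limma-voom. Ccl2 could not have been called lower, because its CN libraries were at or under the floor. It passed the filter on low counts through the E2 and E0 libraries. Ccl2 had 72 counts in E0 and 2 in CN, a ratio of 43.9 with an exact 95% counting interval of 11.7 to 370 (edgeR adjusted p = 0.00248). The log2 fold change was 1.64 ± 0.38 for Cxcl2 (edgeR adjusted p = 0.0165), 1.31 ± 0.27 for Cxcl16 (edgeR adjusted p = 0.00921) and 0.59 ± 0.08 for Csf1 (edgeR adjusted p = 0.00192). Without E0 replicate 2 the calls of Cxcl2 (edgeR adjusted p = 0.0975) and Cxcl16 (edgeR adjusted p = 0.0555) were lost, and that of Cxcl2 was also lost without either CN library (edgeR adjusted p = 0.0755 and 0.0592). Ccl6 (log2 fold change -0.05 ± 0.10, edgeR adjusted p = 0.760) and Ccl9 (0.14 ± 0.12, edgeR adjusted p = 0.407) were not called. Beside these results, 578 of 983 annotated pseudogenes were higher in E0 than in CN and 58 lower, whereas 1275 of 12273 protein-coding genes were higher and 1621 lower. Monocyte and macrophage markers were higher for 8 of 15 and lower for 1. Their sum was not higher, at 3037 to 3125 CPM in E0 and 3135 to 3465 CPM in CN. NK cell markers, summing to 31.0 and 33.9 CPM in E0 and 14.2 and 12.4 CPM in CN, were higher for 6 of 7. The part of either in the members' results was not tested.

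Per length, Ccl6 was the leading chemokine transcript in every group. Over the 18 chemokines analysed, Ccl6 had 10132 and 9470 TPM in E1, and 12670 and 13001 TPM in CN. The values were 14110 and 15112 TPM in E2, and 12862 and 13380 TPM in E0. Together Ccl6 and Ccl9 made up 87.3% and 81.5% of chemokine TPM in E1, against 99.3% and 99.2% in CN, and 90.1% and 90.4% in E2, against 99.3% and 99.1% in E0. The summed TPM of the other 16 chemokines was 1625 and 2374 in E1, against 88.1 and 111 in CN, and 1761 and 1828 in E2, against 101 and 124 in E0. In E1 the largest of these was Ccl5, at 1595 ± 539 TPM (SD, n = 2), and in E2 it was Ccl3, at 908 ± 15.7 TPM (SD, n = 2). The ratio of Ccl9 to Ccl6 TPM was 0.0998 and 0.106 in E1, against 0.0483 and 0.0374 in CN, and 0.134 and 0.135 in E2, against 0.0478 and 0.0499 in E0.

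Among the 8 other CC chemokines analysed of 18 listed, 6 were called higher in E1 than in CN and 0 lower by edgeR, with a median log2 fold change of 0.69, and 6 were called higher and 1 lower in E2 than in E0, with a median of 3.61. In E1, 1 was lower at an unadjusted p below 0.05, and 0 were called lower by DESeq2 or limma-voom. Ccl24 had 2 and 0 counts in the CN libraries, so a fall of it in E1 was not detectable. Over all tested genes, 9.19% were called higher and 8.08% lower in E1, and 17.0% higher and 18.5% lower in E2. Ccl5 was at 568 ± 178 CPM in E1 and 7.81 ± 2.13 CPM in CN (log2 fold change 6.19 ± 0.30, edgeR adjusted p = 3.52e-06). Ccl17 and Ccl22, which attract cells bearing Ccr4, were at 76.8 ± 0.721 and 100.1 ± 27.4 CPM in E2 and at 1.59 ± 0.0835 and 2.14 ± 1.04 CPM in E0 (SD, n = 2). Ccl22 was also at 28.3 ± 12.1 CPM in E1 and 0.748 ± 0.328 CPM in CN (log2 fold change 5.22 ± 0.49, edgeR adjusted p = 0.000159). Its difference of responses was not called (0.30 ± 0.62, edgeR adjusted p = 0.776). Of the 5 other CXC and CX3C chemokines analysed of 15 listed, 4 were called higher in E1 than in CN. In E2, 2 were called higher than in E0. In either comparison 0 were lower, also at an unadjusted p below 0.05 and by DESeq2 or limma-voom. However, Cxcl9 and Cxcl11 had 0 to 2 counts in each CN and E0 library, so a fall of either was not detectable. Cxcl10 and Cx3cl1, at 2 to 14 counts in those libraries, left little room for a fall. Cxcl10, a ligand of Cxcr3, was at 190 ± 2.66 CPM in E1 and 0.0948 ± 0.0150 CPM in CN (log2 fold change 10.93 ± 0.21, edgeR adjusted p = 5.53e-08). With genes at 0 to 3 counts in a group set at the bound of 3 counts over the group, the median of that list was 7.13 for E1 versus CN and 1.40 for E2 versus E0, against fitted medians of 10.55 and 1.69. Cxcl11 was at least 140-fold higher in E1 than in CN by the same bound. Both listed growth factors analysed besides Csf1 were called higher in E2 than in E0. Csf2 (GM-CSF) had 122 and 291 counts in E2 and 0 in both E0 libraries, at least 123-fold higher by the bound over the group. Il5 was at 966 ± 0.222 CPM in E2 and 501 ± 4.90 CPM in E0, in cells whose donors are IL-5 transgenic by the protocol and WT by the genotype label. Csf1 thus fell in the same cultures in which these 2 rose.

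**Figure D3:**
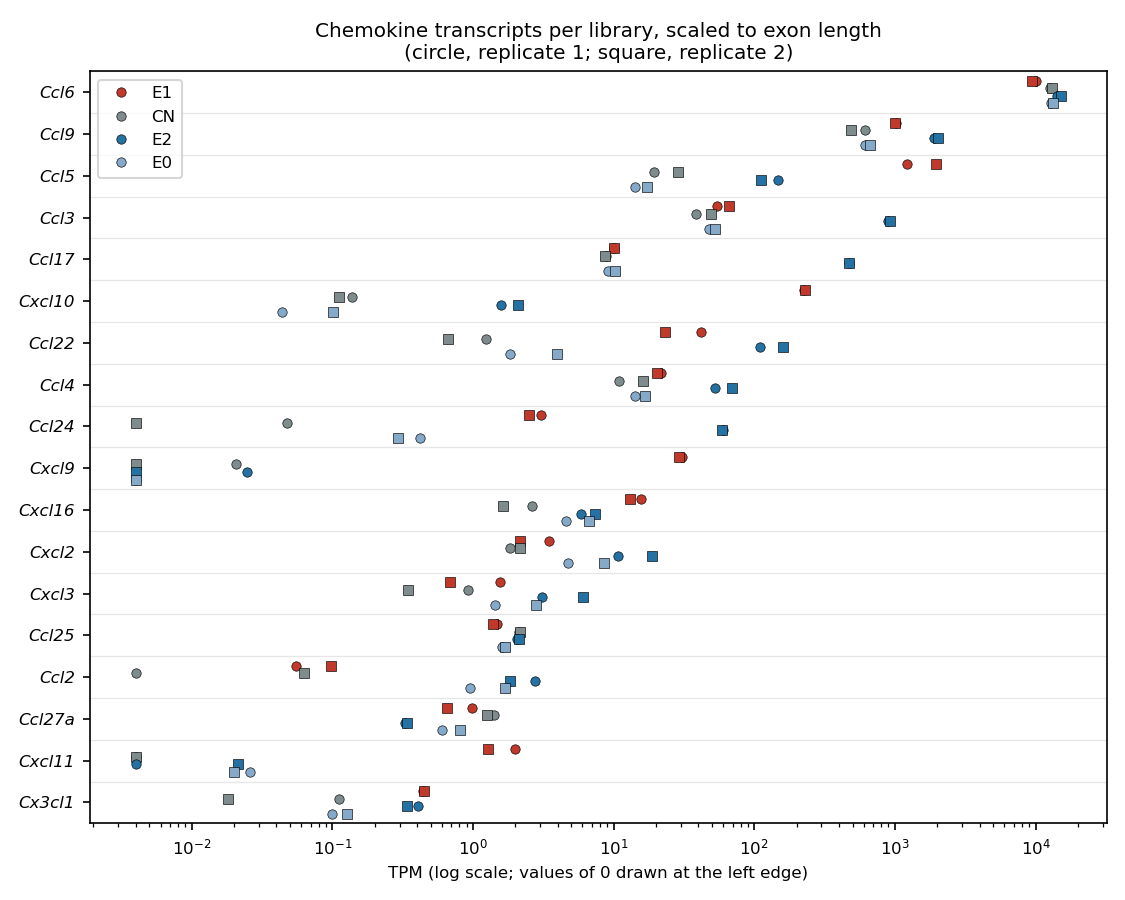
TPM on a log axis (x) of the 18 chemokines analysed (y, ordered by mean) in each library; colours are groups, circles replicate 1 and squares replicate 2, and values of 0 stand at the left edge. Ccl6 lies at 9470 TPM or above in every library, and Ccl2 is among the lowest transcripts of E1 and CN.

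The receptors of these ligands were examined because eosinophils can themselves respond to them. Of the 6 receptor genes analysed of 8 listed, Csf1r was called higher in E1 than in CN and Cxcr1 and Cxcr2 lower. In E2, Csf1r was called higher than in E0 and Ccr2 lower. The share of all tested genes called was 17.3% for E1 versus CN and 35.5% for E2 versus E0. The list's median log2 fold change was -0.57 for E1 versus CN and 0.06 for E2 versus E0.

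Ccr1, the receptor of Ccl6 and Ccl9, had 402 and 360 CPM in E1, 464 and 426 CPM in CN, 498 and 535 CPM in E2, and 484 and 510 CPM in E0. It was not called in either comparison (edgeR adjusted p = 0.132 and 0.660). Ccr2, the receptor of Ccl2, had 16.1 and 16.6 CPM in E1, 37.5 and 23.8 CPM in CN, 18.7 and 20.5 CPM in E2, and 27.8 and 46.9 CPM in E0. Treated libraries lay below controls in both experiments, with log2 fold changes of -0.91 ± 0.26 for E1 versus CN (edgeR adjusted p = 0.0506, called in 8 of 17 alternatives) and -0.93 ± 0.26 for E2 versus E0 (edgeR adjusted p = 0.0258, lost in 3 of 17). Ccr2 is also in the list of monocyte and macrophage markers, and the part of such cells in its values was not tested.

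Cxcr2, the receptor of Cxcl2, had 22.97 and 14.7 CPM in E1, against 137 and 111 CPM in CN, and 134 and 160 CPM in E2, against 115 and 165 CPM in E0. It fell by 2.72 ± 0.25 on the log2 scale in E1 versus CN (edgeR adjusted p = 0.000134) and was not called in E2 versus E0 (log2 fold change 0.07 ± 0.23, edgeR adjusted p = 0.846). The difference of the 2 responses was called for Cxcr2 (2.78 ± 0.33, edgeR adjusted p = 0.000647). Cxcr1, its close relative, had 2 and 8 counts in E1 and 507 and 430 counts in CN (log2 fold change -6.32 ± 0.44, edgeR adjusted p = 3.06e-05). Both are also neutrophil transcripts, and 8 of the 15 neutrophil markers were lower and 1 higher in E1 than in CN, a list that holds Cxcr2 itself. Of all tested genes, 8.08% were called lower and 9.19% higher. The part of neutrophils in the values of Cxcr1 and Cxcr2 was not tested.

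Csf1r, the receptor of Csf1, had 722 and 816 CPM in E1, against 457 and 401 CPM in CN, and 817 and 772 CPM in E2, against 400.4 and 434 CPM in E0. It rose by 0.84 ± 0.10 on the log2 scale in E1 (edgeR adjusted p = 0.000645) and by 0.93 ± 0.10 in E2 (edgeR adjusted p = 0.000313), so that in E2 the ligand was lower and the receptor higher than in E0. Csf1r is also a macrophage gene. Of the 15 markers in the list of monocytes and macrophages, which holds Csf1r, 4 were higher and 4 lower in E1 than in CN, and 4 higher and 10 lower in E2 than in E0. Over all tested genes, 9.19% were called higher and 8.08% lower in E1, and 17.0% higher and 18.5% lower in E2. Cxcr6, the receptor of Cxcl16, stayed at or below 1.02 CPM in every library and was not called.

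**Figure D4:**
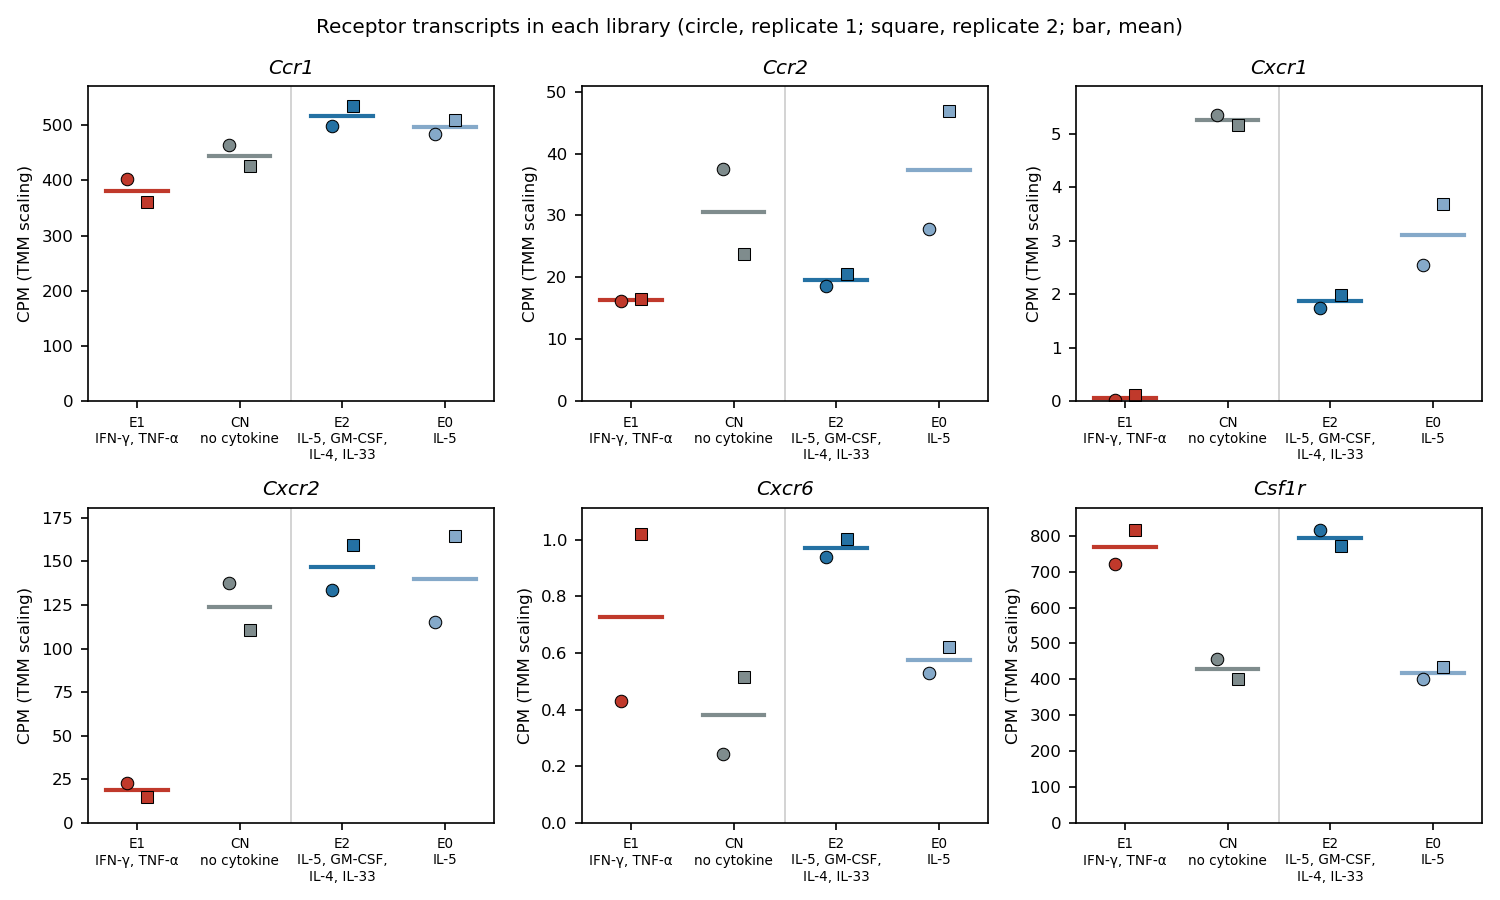
CPM with TMM scaling (y axis, linear from 0) of 6 receptor transcripts in the E1, CN, E2 and E0 libraries (x axis); circles are replicate 1, squares replicate 2 and bars the mean of 2 libraries. Cxcr2 is at 22.97 and 14.7 CPM in E1 against 137 and 111 CPM in CN, and Csf1r is higher in both treated groups than in their controls.

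Cxcl16 and membrane-bound Csf1 are released by proteases, of which Adam17 and Adam10 are the best known. Adam17 was at 115 ± 4.83 CPM in E1 and 77.2 ± 3.13 CPM in CN (log2 fold change 0.58 ± 0.06, edgeR adjusted p = 0.000334). With the other mixture it was at 108 ± 0.0176 CPM in E2 and 93.0 ± 2.69 CPM in E0 (log2 fold change 0.21 ± 0.06, edgeR adjusted p = 0.0288, lost in 4 of 17 alternatives). Rhbdf2, which carries Adam17 to the cell surface, was called higher in E2 than in E0 (log2 fold change 0.49 ± 0.06, edgeR adjusted p = 0.000698). Of the 3 such genes analysed of 4 listed, 1 was called higher in E1, with a median log2 fold change of 0.08, and 2 in E2, with a median of 0.21. The share of all tested genes called higher was 9.19% in E1 and 17.0% in E2.

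Of 24 transcription factors and inhibitors of the NF-κB, STAT, IRF, C/EBP and AP-1 families, 18 were called higher and 1 lower in E1 than in CN, with a median log2 fold change of 0.93. In E2 versus E0, 15 were called higher and 5 lower, with a median of 0.77. Among all tested genes, 9.19% were called higher and 8.08% lower in E1, and 17.0% higher and 18.5% lower in E2. Irf1, which encodes an interferon regulatory factor, was at 1427 ± 144 CPM in E1 and 76.1 ± 0.411 CPM in CN (SD, n = 2; log2 fold change 4.23 ± 0.10, edgeR adjusted p = 1.09e-07). The inhibitor Nfkbia, itself an NF-κB target, rose by 2.86 ± 0.10 on the log2 scale in E1 (edgeR adjusted p = 6.63e-07) and by 3.34 ± 0.10 in E2 (edgeR adjusted p = 7.77e-07). Relb rose by 2.00 ± 0.09 in E1 (edgeR adjusted p = 3.17e-06) and by 2.23 ± 0.10 in E2 (edgeR adjusted p = 3.07e-06). Nfkbiz, which encodes the cofactor IκB-ζ, rose by 1.03 ± 0.16 in E1 (edgeR adjusted p = 0.00256) and by 3.28 ± 0.17 in E2 (edgeR adjusted p = 8.66e-06).

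Chemokine mRNAs are also known to be short-lived. Of 10 regulators of mRNA decay, 2 were called higher and 0 lower in E1 (edgeR; 1 lower at an unadjusted p below 0.05, 0 by DESeq2 or limma-voom), with a median log2 fold change of 0.19, and 5 were called higher and 1 lower in E2, with a median of 0.13. Of all tested genes, 9.19% were called higher and 8.08% lower in E1, and 17.0% higher and 18.5% lower in E2. Zc3h12a (Regnase-1), an endonuclease that cleaves inflammatory mRNAs, was at 37.6 ± 2.23 CPM in E1 and 23.1 ± 0.928 CPM in CN, and at 168 ± 4.64 CPM in E2 and 19.2 ± 1.14 CPM in E0. Its log2 fold change was 0.70 ± 0.08 in E1 versus CN (edgeR adjusted p = 0.000422) and 3.12 ± 0.08 in E2 versus E0 (edgeR adjusted p = 5.59e-07). Its relative Zc3h12c rose by 1.56 ± 0.23 in E1 (edgeR adjusted p = 0.00233) and by 2.97 ± 0.23 in E2 (edgeR adjusted p = 6.22e-05).

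Ccl6 and Ccl9 lie in a cluster of chemokine genes on chromosome 11, in which the other chemokines responded with very different sizes. Within 100 kb of Ccl6, 8 genes were analysed, of which 6 were called higher and 1 lower in both comparisons. Among all tested genes, 9.19% were called higher and 8.08% lower in E1, and 17.0% higher and 18.5% lower in E2. Ccl3 was at a log2 fold change of 0.60 ± 0.12 in E1 versus CN (edgeR adjusted p = 0.0104) and 4.17 ± 0.13 in E2 versus E0 (edgeR adjusted p = 7.95e-07). Ccl4, another attractant of the same family, was at 0.78 ± 0.22 in E1 (edgeR adjusted p = 0.0423, lost in 9 of 17 alternatives) and 1.97 ± 0.22 in E2 (edgeR adjusted p = 0.000384). On the other side of Ccl9, Ccl5 rose by 6.19 ± 0.30 in E1 and by 3.05 ± 0.27 in E2 (edgeR adjusted p = 3.52e-06 and 0.000111). The noncoding gene E230016K23Rik overlaps the body of Ccl6 on the opposite strand with 0 shared exon bases. It was lower in both treated groups, at -0.61 ± 0.12 in E1 versus CN (edgeR adjusted p = 0.0107) and -0.75 ± 0.12 in E2 versus E0 (edgeR adjusted p = 0.00246). Of the genes in this stretch, Ccl6 itself and Rpl9-ps1 were not called in either comparison.

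**Figure D5:**
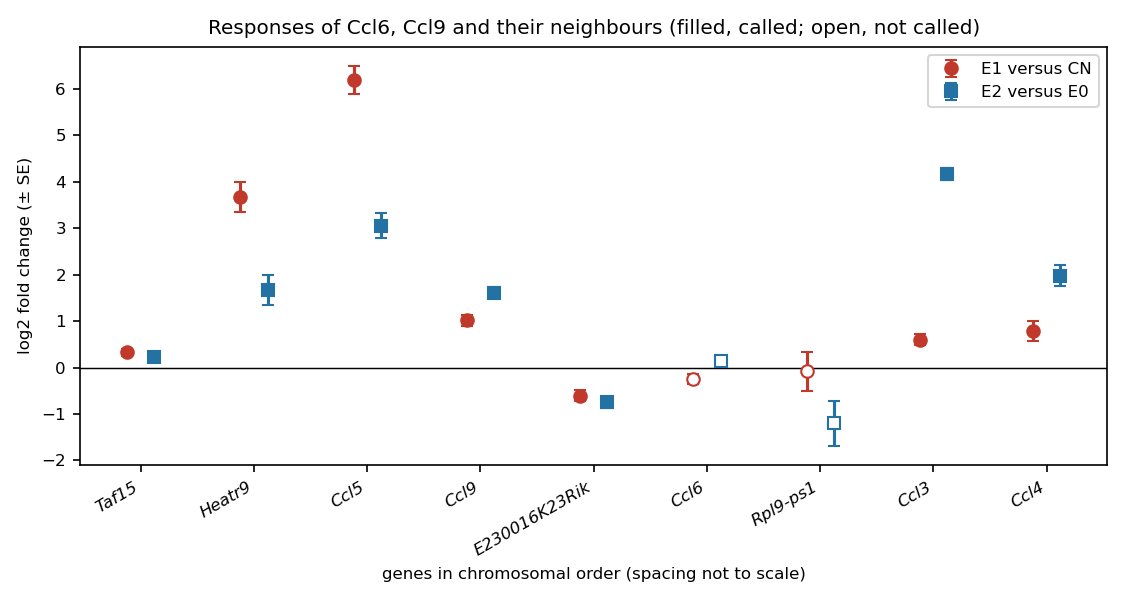
Log2 fold change ± SE (y axis) of Ccl6, Ccl9 and the 7 other genes analysed within 100 kb of Ccl6, in chromosomal order (x axis, spacing not to scale), in E1 versus CN (circles) and E2 versus E0 (squares); filled symbols were called. Ccl5 is highest in E1 at 6.19 and Ccl3 highest in E2 at 4.17, whereas Ccl6 is at -0.25 and 0.15.

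Within 100 kb of Cxcl16, 9 genes were analysed, of which Zmynd15 and Pld2 were called higher in E1 than in CN, where 9.19% of all tested genes were. Pld2, a phospholipase gene, was at 3.80 CPM in E1 and 0.614 CPM in CN (log2 fold change 2.62 ± 0.39, edgeR adjusted p = 0.00224) and was not called in E2 versus E0 (log2 fold change 0.04 ± 0.36, edgeR adjusted p = 0.942). The single neighbour analysed of Csf1, Ahcyl1, and that of Cxcl2, Mthfd2l, were not called in either comparison (edgeR adjusted p = 0.167 and 0.548 for E1 versus CN, 0.786 and 0.793 for E2 versus E0). For Ccl2, 0 genes within that distance were analysed.

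The genes most like each member across the 8 libraries were ranked by Pearson correlation of log2 CPM among 7830 to 7831 genes with a mean of at least 10 CPM. These values describe 4 groups from 2 experiments, and libraries of the same experiment are not independent of it. Ccl9 was closest to Etv6, which encodes a transcriptional repressor (r = 0.9947), Pilrb2 (r = 0.993) and Tnf (r = 0.993). Tnf, the cytokine added to E1, had 34.5 and 30.1 CPM in E1, 6.49 and 2.46 CPM in CN, 125 and 123 CPM in E2, and 6.84 and 8.28 CPM in E0. Cxcl16 was closest to the surface receptor gene Slamf7 (r = 0.983), the chemokine receptor Ccr7 (r = 0.980) and Ndufa10 (r = 0.976). Csf1 was closest to Gng2 (r = 0.986), Crlf3 (r = 0.986) and Trmt1l (r = 0.979). Ccl6 was closest to Bri3bp (r = 0.966), Nek6 (r = 0.965) and Selenof (r = 0.962), and Cxcl2 to Hnrnpdl (r = 0.987), Ppp1cb (r = 0.987) and Ppid (r = 0.985). Ccl2, at 0 to 3 counts in the first experiment, was closest to Lrrc58 (r = 0.985), Eif4a-ps4 (r = 0.984) and Tpm3-rs7 (r = 0.981), genes that were higher in both groups of the second experiment than in both groups of the first.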

How the data were processed

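mRNA was measured in 8 libraries, 4 groups of 2, made with the TruSeq Stranded mRNA kit, per the labels' protocols. The deposited table holds raw read counts per Ensembl gene, not normalized. STAR, featureCounts and mm10 are named per the submitters' processing notes, while their versions, the annotation and the strand setting are not stated. A row without a gene name, 1 in all, held the sum of each column (100% of the named counts) and was not used.

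Counts were filtered with filterByExpr, which removed 4 genes, and scaled with TMM. They were tested with the edgeR 4.0.16 quasi-likelihood F test (R 4.3.3), two-sided, in 1 fit with 1 mean per group over all 8 libraries and 4 residual degrees of freedom. P-values were adjusted by Benjamini-Hochberg over 15913 genes, and a gene was called below 0.05. The SE of a log2 fold change is its size divided by the square root of F. TPM used the union of exons in GENCODE M21, which gave a length to 15730 genes. The method was tested on simulated data. DESeq2 1.42.0, limma-voom (limma 3.58.1), other scalings and filters, a replicate block and leaving out each library were alternatives. Leaving out pseudogenes was added after seeing the data.

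All members and receptors were named. From each other list at most 4 called genes with the largest change per comparison were taken, at 1 CPM or more, and from each marker list the 2 most abundant genes and those at 0. Neighbours within 100 kb and the 3 most correlated genes per member completed the rule. Cxcl3 was added after its values were seen, and 1 gene that the rule names is not reported here. The members and lists were chosen with earlier results of these data known. Promoters are from RefSeq on GRCm38.p6.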

Additional observations from a re-analysis of the deposited data

Results flagged for a closer look

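For 3 members the response in the second experiment differed from that in the first by the interaction test, (E2 minus E0) minus (E1 minus CN), on the log2 scale. The difference was 0.60 for Ccl9, with both responses upward. It was -2.66 for Cxcl16 and -2.25 for Csf1, where E1 was above CN in both cases and, for Csf1, E2 was below E0. The edgeR adjusted p was 0.0321 for Ccl9, 0.00137 for Cxcl16 and 8.71e-06 for Csf1. The Ccl9 call was lost when any single library except CN replicate 2 was left out, and its difference was 0.40 without CN replicate 1. The calls of Cxcl16 and Csf1 were kept in every alternative run. Both libraries of each treated group lay on the same side of both control libraries for Ccl9 and Csf1, while E2 and E0 overlapped for Cxcl16.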

How the results depend on the processing

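The counts of genes called were 2749 for E1 versus CN, 5655 for E2 versus E0, 4018 for the difference of responses and 4038 for E0 versus CN. Leaving out 1 library gave 1904 to 2484, 3334 to 5929, 2715 to 3768 and 2235 to 4274 genes in the same order, and 3, 2 to 3, 2 to 3 and 2 to 4 members called. The replicate block raised the counts of genes to 5521, 8514, 6821 and 7476. The labels do not say that a number marks a shared donor, and with only 2 numbers the pairing is not established, although the number goes with sex in every group and deviations of same-numbered libraries correlated within experiments (r = 0.626 for E1 with CN, 0.604 for E2 with E0) and not between them (-0.286 to -0.0433). With the block, Ccl6 was called lower in E1 (edgeR adjusted p = 0.00568) and higher in E2 (edgeR adjusted p = 0.0394).

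Over the members' 390 alternative values, 364 kept direction and call, 13 lost the call, 10 gained one and 3 reversed. The reversed values were the Ccl2 difference of responses without CN replicate 1 (0.39; its range over libraries left out was -3.63 to 0.39), and for E0 versus CN, Ccl6 by library totals (0.0158) and Ccl9 without CN replicate 2 (-0.0189, range to 0.32). None of these was called. Among receptors, Cxcr2 in E2 versus E0 turned to -0.17 without E0 replicate 1 and -0.07 without E2 replicate 2, with a range up to 0.35. The cause was not tested. Of 744 values for receptors and other named list genes, 708 kept direction and call. Scaling by library totals moved the median of all genes in E1 versus CN to -0.11, and the share of calls that were higher to 38.6%, against 53.2% with TMM. In E0 versus CN that share was 66.8%, against 53.0%. With only the 4 libraries of E1 and CN, 775 genes were called lower, against 1286 with all 8, and 743 without CN replicate 1. Leaving out pseudogenes did not alter which comparison called how many members. For Ccl2 in the first experiment, where every library was at or under 3 counts, depth hides a fall or a small rise.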
